A study of Mus musculus with 18 samples.

Results

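The genes described here fold secreted and membrane proteins in the endoplasmic reticulum (ER) or signal and clear misfolded protein there. They are a list of names, drawn up with earlier results of these data known, and the rule itself uses no measured value. The list holds 5 sensors and signalling factors, 16 chaperones and folding helpers, 9 disulfide and related thioredoxin-fold factors, 8 degradation factors and 3 subunits of the Sec61 translocon. All 41 were among the 21937 genes of the deposited table. A mean of at least 10 normalized reads was reached by 40 of them, which entered tests across 12393 genes. Derl3, a derlin of the degradation machinery, had a mean of 4.97 normalized reads and 0 to 12 reads a library, and was not tested.

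Proteins that enter the ER through the Sec61 channel are folded by chaperones such as BiP, cross-linked by protein disulfide isomerases, and returned to the cytosol for degradation when folding fails. The unfolded protein response raises this capacity when misfolded protein accumulates: PERK, IRE1 and ATF6 span the ER membrane, PERK slows translation, IRE1 splices the mRNA of the transcription factor XBP1, and ATF6 is cleaved to release another transcription factor. In fibroblasts, which secrete much collagen and fibronectin, these genes also serve the ordinary secretory load.

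Samples were NIH3T3 cells, an established line of mouse embryo fibroblasts. Every culture received 100 nM dexamethasone, a synthetic glucocorticoid, for 2 h. Normal medium then replaced it, which defines 0 h, and total RNA was sequenced then and every 4 h up to 32 h. Each of the 9 times has 2 libraries, numbered replicate 1 and replicate 2, with no library of untreated cells, so the pulse and the medium change are shared by all groups and time is what differs. The labels do not say whether the replicates are separate cultures, so p-values measure only the spread between these libraries.

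The 18 libraries held 25.4 to 38.9 M reads, with the fewest in the 0 h and 4 h libraries of replicate 2. The total of the normalized values was higher early (34.9 and 35.1 M at 0 h) than late (30.0 to 30.4 M at 28 h and 32 h). The 10 fibroblast markers were all above the testing minimum, with sums of 853925 to 1230090 normalized reads. Other markers were low: neural ones summed to 2.57 to 14.2 normalized reads, adipocyte ones to 25.2 to 62.7, endothelial ones to 37.4 to 101.01, leukocyte ones to 290.31 to 416, and Cd3e, Kdr and Myod1 were at 0 in every library. Sums of the 5 epithelial markers were 832 to 1122 at 0 h, 934 to 990.35 at 4 h and 136 to 147 at 28 h. The 4 skeletal muscle markers, nearly all Acta1, summed to 5077 to 6146 at 0 h, 6424 to 6832 at 4 h and 878 to 1105 at 28 h. All 3 tested genes of these lists (Krt8, Krt18 and Acta1) were lower at 28 h than at 4 h by limma, as many ER genes were, and their part in the results on ER genes was not tested.

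After the medium change the ER folding genes were mostly higher at 4 h than at 0 h. Of the 40 tested, 28 rose and 0 fell at an adjusted p under 0.05, in limma's moderated test over log2(value + 1) with Benjamini-Hochberg adjustment over all tested genes. Among all 12393 genes 11% rose and 10.5% fell. The median log2 change was 0.34 over the members and -0.0015 over all tested genes. No member fell with edgeR or DESeq2 either, nor at an unadjusted p under 0.05, and these tools called 27 and 28 members higher. The shares of all tested genes called by edgeR and DESeq2 at 4 h are not given here. By role, 3 of 5 sensors, 11 of 16 chaperones, 7 of 9 disulfide factors, 6 of 7 tested degradation factors and 1 of 3 translocon subunits rose. Sdf2l1, Herpud1, Dnajb9, Hspa5 and Syvn1 had the largest changes, from 1.92 to 1.24 on the log2 scale. In these bulk RNA samples, a change in the number of expressing cells and a change in RNA per cell cannot be told apart.

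The number of calls depended on single libraries. Without the 4 h library of replicate 1, or without the 0 h library of replicate 2, 17 members rose at 4 h, against 5.67% and 4.07% of all tested genes in those settings. In either case these were 1 of 5 sensors, 8 of 16 chaperones, 4 of 9 disulfide factors, 4 of 7 degradation factors and 0 of 3 translocon subunits. A group of 17 was called in every one of the alternative settings run: Eif2ak3, Dnajb9, Sdf2l1, Hspa5, Dnajc3, Hyou1, Creld2, Manf, Hsp90b1, Herpud1, Syvn1, Sel1l, Edem1, Txndc11, Ero1l, Pdia4 and Ero1lb. The other 11 had changes of 0.19 to 0.57, a range that also held Edem1, Sel1l and Pdia4 of the 17. Each of the 11 lost its call in at least 2 settings, and P4hb, Fkbp11 and Calr lost theirs most often.

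**Figure D1:**
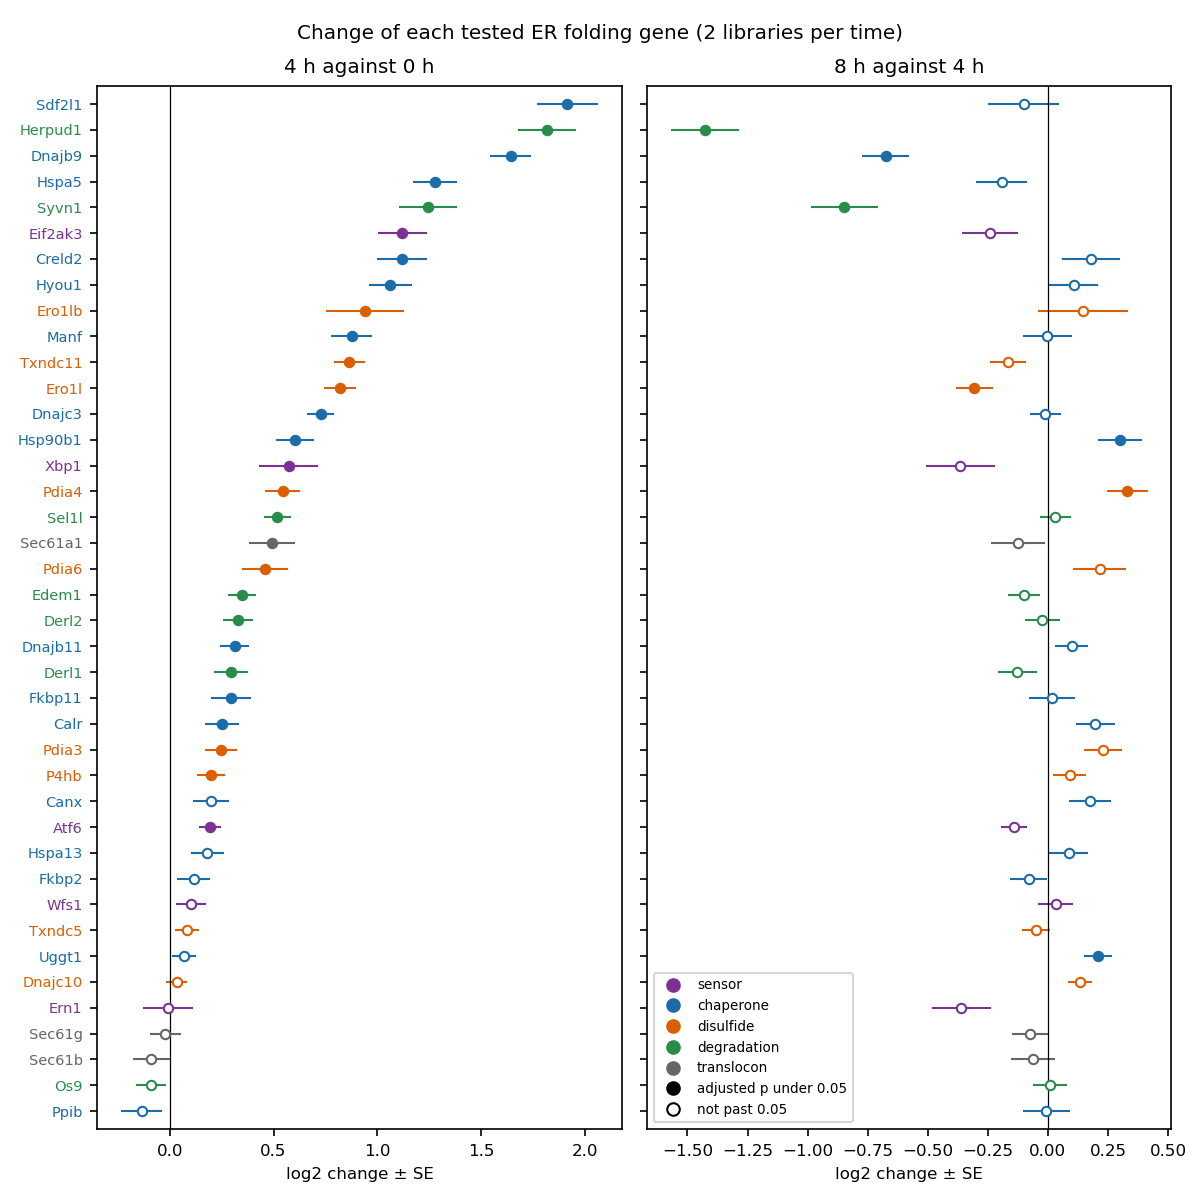
Log2 change with its standard error for each of the 40 tested ER folding genes, at 4 h against 0 h (left) and at 8 h against 4 h (right), on the log2(value + 1) scale. Genes are ordered by the left panel, colours give the role, and filled points passed an adjusted p of 0.05 (limma). On the left 28 genes lie above 0 and pass, while on the right Herpud1, Syvn1, Dnajb9 and Ero1l lie below 0 and Pdia4, Hsp90b1 and Uggt1 above it.

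Promoter sequence was set beside these changes. RefSeq promoters of the mouse assembly GRCm38.p6, from 250 bases before to 50 bases after the annotated start, were found for 35 of the 41 genes, 2 of them under a newer symbol; Atf6, Hyou1, Hspa13, Manf, Derl1 and Sec61a1 are the others. The ER stress response element (ERSE), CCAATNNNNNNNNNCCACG, and the other elements named below were searched on both strands. ERSE occurred in 10 of the 35 genes (28.6%), against 37 of all 27025 genes with a promoter (0.137%) and 39 of all 32851 promoters of that length (0.119%). The 10 are Hspa5, Hsp90b1 with 2 matches, Dnajc3, Calr, Canx, Creld2, Pdia6, Ero1lb, Syvn1 and Derl3. The shorter ERSE-II, ATTGG and CCACG with 1 base between them, was found in Herpud1 and Dnajb11, 5.71% of the 35 genes, against 0.0444% of all genes. The UPRE core TGACGTGG was found in Txndc5 and Txndc11 (5.71%, against 0.714% of all genes), and the C/EBP-ATF response element (CARE) TGATGCAA in Herpud1 alone (2.86%, against 1.03%). ERSE is by name an element of the ER stress response, and the members were listed for their part in ER folding and signalling. The shares are thus not independent of the list, and the excess over all genes was not tested. The stretches below are shown because they carry an ERSE, ERSE-II or UPRE match upstream of the start in genes that rose at 4 h, and in Canx, which did not pass. The match of Dnajb11, which also rose, lies after the start and is not shown. Each is read 5′ to 3′ on the gene's own strand. Capitals mark the matched element, which reads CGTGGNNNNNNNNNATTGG where ERSE lies on the opposite strand.
Hspa5 (chr2:34772005-34772063, plus strand): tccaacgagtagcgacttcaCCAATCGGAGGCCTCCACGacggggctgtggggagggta
Hsp90b1 (chr10:86705618-86705676, minus strand): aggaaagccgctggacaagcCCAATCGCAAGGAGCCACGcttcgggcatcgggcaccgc
Hsp90b1 (chr10:86705513-86705571, minus strand): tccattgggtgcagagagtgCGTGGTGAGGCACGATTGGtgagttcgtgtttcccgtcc
Dnajc3 (chr14:118937807-118937865, plus strand): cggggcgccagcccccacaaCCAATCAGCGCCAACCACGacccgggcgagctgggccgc
Creld2 (chr15:88819500-88819558, plus strand): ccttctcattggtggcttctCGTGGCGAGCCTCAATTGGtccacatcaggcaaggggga
Calr (chr8:84847055-84847113, minus strand): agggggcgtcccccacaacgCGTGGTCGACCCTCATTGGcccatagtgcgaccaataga
Canx (chr11:50325780-50325838, minus strand): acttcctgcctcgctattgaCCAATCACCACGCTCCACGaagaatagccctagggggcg
Pdia6 (chr12:17266471-17266529, plus strand): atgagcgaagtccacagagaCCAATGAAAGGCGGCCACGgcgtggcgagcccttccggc
Ero1lb (chr13:12565662-12565720, plus strand): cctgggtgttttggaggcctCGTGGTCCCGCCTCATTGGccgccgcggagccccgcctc
Syvn1 (chr19:6046512-6046570, plus strand): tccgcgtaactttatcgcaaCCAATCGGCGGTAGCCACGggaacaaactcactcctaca
Herpud1 (chr8:94386357-94386407, plus strand): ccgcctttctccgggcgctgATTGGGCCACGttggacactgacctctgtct
Txndc11 (chr16:11134607-11134654, minus strand): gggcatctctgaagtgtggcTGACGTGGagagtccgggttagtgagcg

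Of the 9 tested members with ERSE, 8 rose at 4 h, with a median log2 change of 0.73 and a range of 0.20 to 1.28. Canx was the one that did not pass. Of the 25 tested members whose promoter held no ERSE, 15 rose, with a median of 0.29 and a range of -0.14 to 1.92. Sdf2l1 and Dnajb9, among the largest changes of all, had none of the 4 elements in the 300 bases searched. Outside the members, 27 further genes held ERSE and 8 of these were tested; 4 rose, Alg12, Hnrnpa3, Zfp57 and Pan2, at 1.57, 1.18, 1.33 and 1.23-fold. A match is a string of letters in the window, and occupancy by a transcription factor was not measured.

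**Figure D2:**
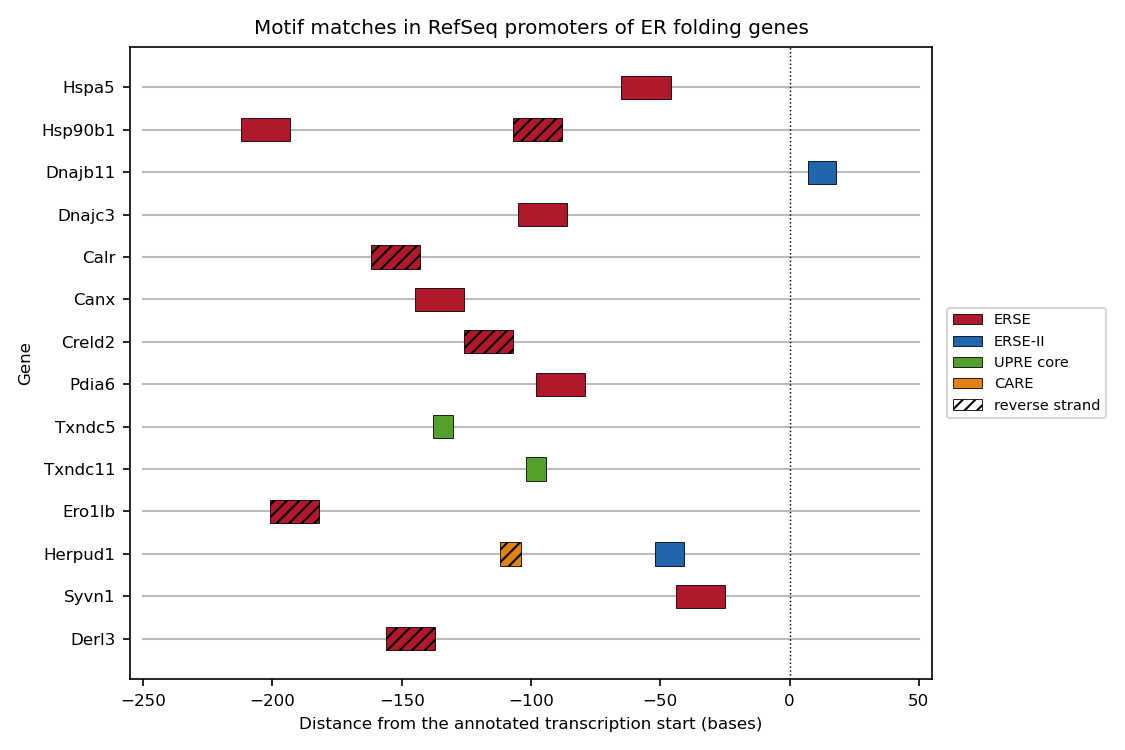
Position of each motif match in the RefSeq promoters of 14 ER folding genes, as distance in bases from the annotated transcription start. Colours give the element and hatching the strand opposite to the gene. All matches lie upstream of the start except that of Dnajb11.

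The test over the 9 times passed for 35 of 40 members, against 52% of all tested genes (limma's moderated F). All 5 sensors and all 7 tested degradation factors passed, with 14 of 16 chaperones, 8 of 9 disulfide factors and 1 of 3 translocon subunits. Ppib, Fkbp2, Dnajc10, Sec61b and Sec61g did not, though Ppib, Sec61b and Sec61g passed with the replicate number as a block. Dnajc10 passed in 2 alternative settings. Of the members that passed, Os9 lost its call in 18 alternative settings, edgeR among them, and Hspa13 in 9. The courses below give each library in the order 0, 4, 8, 12, 16, 20, 24, 28 and 32 h.

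**Figure D3:**
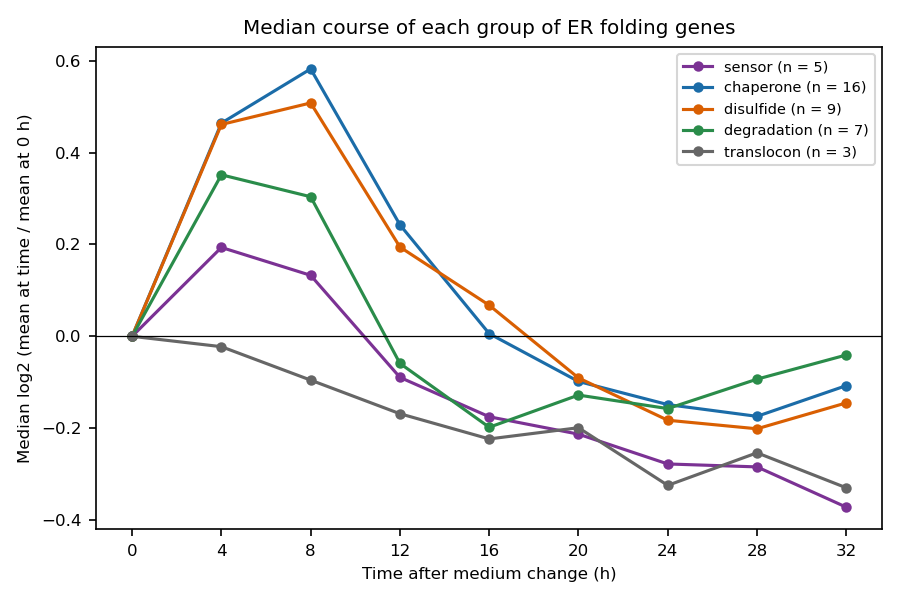
Median over the tested members of each role of log2 (mean at each time over mean at 0 h), against hours after the medium change. Chaperones and disulfide factors are highest at 8 h (medians 0.58 and 0.51), sensors and degradation factors at 4 h (0.19 and 0.35), and the median of the 3 translocon subunits stays below 0 from 4 h on.

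The sensors and signalling factors followed separate courses. Eif2ak3 encodes PERK, the kinase that phosphorylates eIF2alpha. Eif2ak3 had 285, 609, 443, 363, 349, 373, 341, 373 and 348 normalized reads in replicate 1, and 233, 519.99, 510.4, 398, 383, 406, 366, 371 and 386 in replicate 2. Both 4 h libraries were well above both 0 h libraries, and no later library came down to the 0 h level. The means were 564 ± 62.6 normalized reads at 4 h, against 259 ± 36.8 at 0 h (SD, n = 2), a log2 change of 1.12 ± 0.12 (SE, limma adjusted p = 2.48e-05). At 32 h Eif2ak3 was still 1.42-fold the 0 h level (limma adjusted p = 0.00319), a call kept in every alternative run.

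Xbp1 encodes the transcription factor whose mRNA IRE1 splices. The counts are per gene and do not separate spliced from unspliced mRNA. Xbp1 had 3871, 5482, 3734, 2428, 1937, 1811, 1695, 2154 and 2562 normalized reads in replicate 1, and 3389, 5296, 4686, 2572, 2283, 2279, 2275, 2305 and 2795 in replicate 2. The 4 h libraries were the highest and the 24 h libraries the lowest in both replicates, and the 28 h and 32 h values were higher again. Its mean was 5389 ± 131 normalized reads at 4 h, against 3629.7 ± 341 at 0 h (SD, n = 2), a log2 change of 0.57 ± 0.14 (limma adjusted p = 0.0122). That call was lost without the 4 h library of replicate 1 or the 0 h library of replicate 2. At 24 h it was 0.542-fold the 0 h level (log2 change -0.88 ± 0.14, limma adjusted p = 0.000228).

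Ern1, which encodes IRE1alpha, did not pass at 4 h. Ern1 had 825, 821, 633, 598, 492, 487, 542, 479 and 541 normalized reads in replicate 1, and 749.6, 744, 585, 495, 522, 497, 426, 468 and 451 in replicate 2. The 0 h and 4 h values overlapped, and all values from 8 h on lay below them. Between 4 h and 0 h its log2 change was -0.01 ± 0.12 (limma adjusted p = 0.968), while at 28 h it was 0.606-fold the 4 h level (log2 change -0.72 ± 0.12, limma adjusted p = 0.000327).

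Atf6 encodes the membrane-bound transcription factor ATF6alpha. Atf6 had 4277, 5099, 4403, 4172, 3911, 3801, 3870.2, 3646 and 3414 normalized reads in replicate 1, and 4424, 4851, 4623, 4006, 3867, 3705, 3553, 3498 and 3379.7 in replicate 2. Its 4 h values were the highest and its 32 h values the lowest in both replicates. The rise at 4 h was 1.14-fold (log2 change 0.19 ± 0.05, limma adjusted p = 0.0229), and it was lost without any one of 3 libraries, both of 0 h and the 4 h library of replicate 1.

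Wfs1 encodes wolframin, an ER membrane protein. Wfs1 had 2414, 2853, 2811, 2549.6, 2142, 2130.03, 2121, 2110.5 and 1930.4 normalized reads in replicate 1, and 2619.7, 2552, 2708, 2314, 2316, 2339, 2031, 2045 and 1959 in replicate 2. The 4 h values overlapped those of 0 h, and the 32 h values were the lowest in both replicates. At 4 h the change was 0.10 ± 0.07 (log2, limma adjusted p = 0.355), and at 28 h Wfs1 was 0.770-fold the 4 h level (limma adjusted p = 0.000984).

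**Figure D4:**
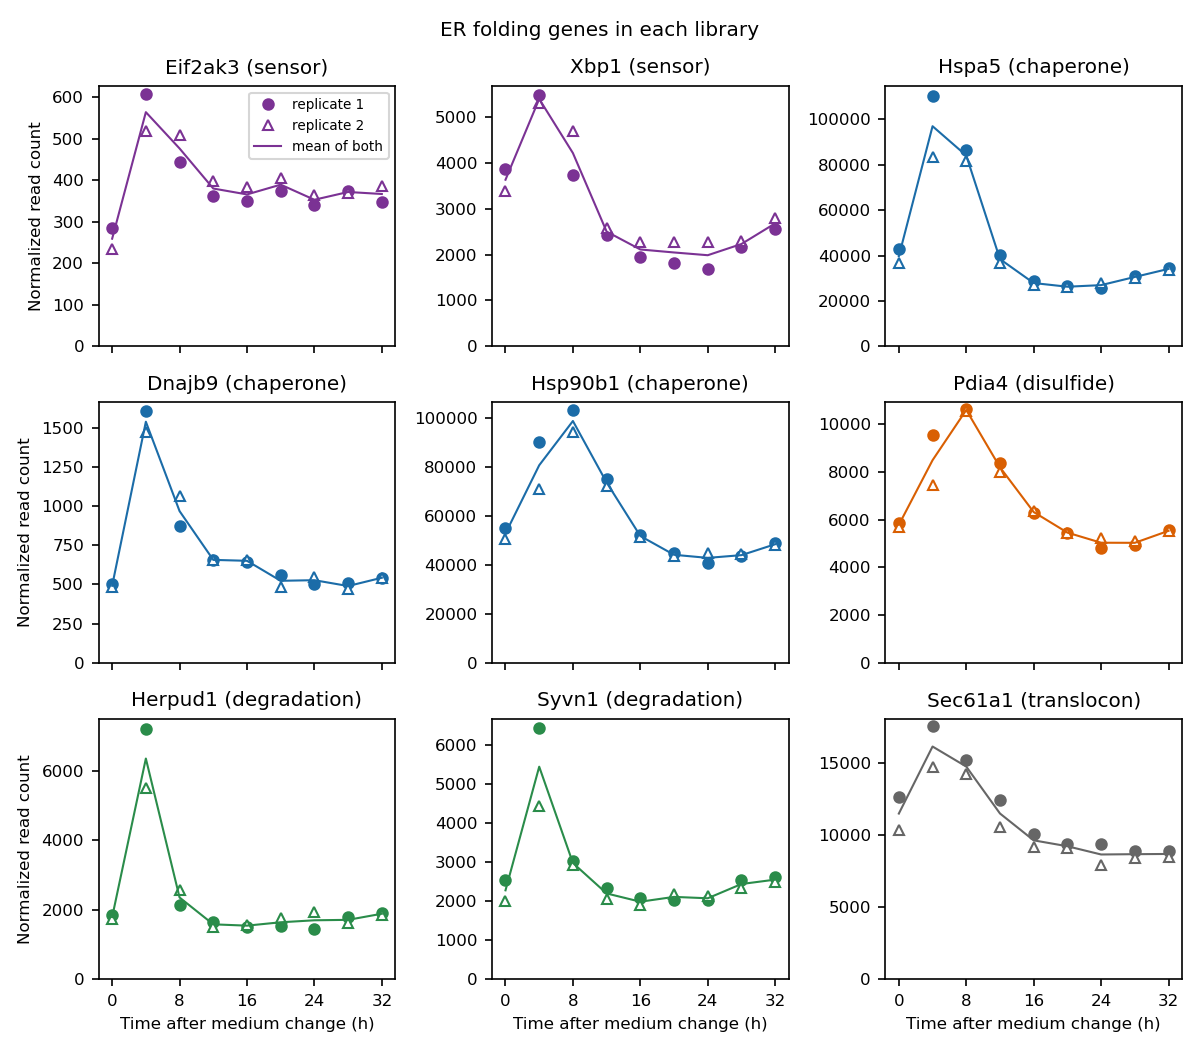
Normalized read count in each of the 18 libraries for 9 ER folding genes against hours after the medium change; filled circles are replicate 1, open triangles replicate 2 and lines join the means. Each vertical axis starts at 0 and has its own scale. Herpud1, Syvn1 and Dnajb9 fall sharply after 4 h, Hsp90b1 and Pdia4 peak at 8 h, and Xbp1 and Hspa5 drop below their 0 h level before their last values.

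Among the chaperones, Hspa5 encodes BiP, the Hsp70-type chaperone of the ER. Hspa5 had 42739.6, 110435, 86437, 40119.6, 28708, 26439.98, 25869, 31152 and 34667 normalized reads in replicate 1, and 36615, 83469, 81640.4, 36732, 27063, 26094, 28060.5, 29979 and 33575 in replicate 2. The 4 h library was the highest in both replicates, and from 16 h to 32 h all 10 libraries lay below both 0 h libraries. The means were 96952 ± 19068 normalized reads at 4 h, against 39677 ± 4331 at 0 h (SD, n = 2), a log2 change of 1.28 ± 0.11 (limma adjusted p = 3.91e-06). At 28 h the level was 0.318-fold that of 4 h (limma adjusted p = 6.92e-08).

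Dnajb9 encodes ERdj4, a J-domain cochaperone of BiP. Dnajb9 had 502, 1605, 873, 658, 644, 562, 504, 509.7 and 543 normalized reads in replicate 1, and 481, 1471, 1062, 654, 656, 483, 549, 469 and 541 in replicate 2. The 4 h libraries stood well above all others, and from 20 h on the values were close to those of 0 h. Its mean was 1538 ± 94.4 normalized reads at 4 h, against 491 ± 15.3 at 0 h (SD, n = 2), a log2 change of 1.64 ± 0.10 (limma adjusted p = 4.62e-07).

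Hyou1 encodes the large Hsp70-related chaperone GRP170. Hyou1 had 7767, 17104, 16983, 10174, 7234, 6329, 5849.96, 6154 and 6776 normalized reads in replicate 1, and 6781, 13428, 15691, 9221, 6524, 6078, 5418, 5843 and 6212 in replicate 2. Its 4 h and 8 h libraries were well above all others, with the peak at 4 h in replicate 1 and at 8 h in replicate 2. At 4 h it was 2.09-fold the 0 h level (log2 change 1.06 ± 0.10, limma adjusted p = 1.38e-05).

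Manf, a small secreted ER stress protein, and Creld2, an EGF-like ER protein with isomerase activity, had like courses. Manf had 4149, 8222, 7086, 4493, 3182, 2888, 2798, 2961 and 3406 normalized reads in replicate 1, and 4183, 7109, 8217, 4603, 3343, 3259, 3389.8, 3237 and 3753 in replicate 2. Creld2 had 2672, 6509.96, 6296, 3524, 2457, 2239.98, 2071, 2272 and 2913 normalized reads in replicate 1, and 2364, 4578, 6071, 3289, 2375, 2184, 2255, 2273 and 2597 in replicate 2. In both genes the 4 h and 8 h libraries formed the high group, the 12 h libraries came next, and all others were lower. The changes at 4 h were 0.88 ± 0.10 for Manf and 1.12 ± 0.12 for Creld2 (log2, limma adjusted p = 5.47e-05 and 3.00e-05).

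A further 6 chaperones rose at 4 h by limma. Sdf2l1, an ER cochaperone subunit, had 2311 and 1644 normalized reads at 4 h, against 573 and 464 at 0 h, the largest change of all members (log2 1.92 ± 0.15, limma adjusted p = 2.34e-06). Hsp90b1, which encodes GRP94, had 90086 and 71041 normalized reads at 4 h, against 54838 and 50627 at 0 h (log2 0.60 ± 0.09, limma adjusted p = 0.000518). Dnajc3, the cochaperone p58IPK, rose by 0.73, Dnajb11 (ERdj3) by 0.31, the prolyl isomerase Fkbp11 by 0.29 and calreticulin (Calr) by 0.25 on the log2 scale. Calr and Fkbp11 lost the call in 8 and 9 alternative settings, both left-out libraries named above among them.

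Another 5 chaperones did not pass at 4 h. The lectin calnexin (Canx), which works in one cycle with calreticulin, changed by 0.20 ± 0.09 and Uggt1, the glycoprotein glucosyltransferase that returns unfolded glycoproteins to calnexin, by 0.07 ± 0.06 on the log2 scale. Hspa13, an Hsp70-type ATPase, changed by 0.18 ± 0.08, Fkbp2 by 0.11 ± 0.08 and cyclophilin B (Ppib) by -0.14 ± 0.10. With the replicate number as a block, Canx and Hspa13 passed.

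**Figure D5:**
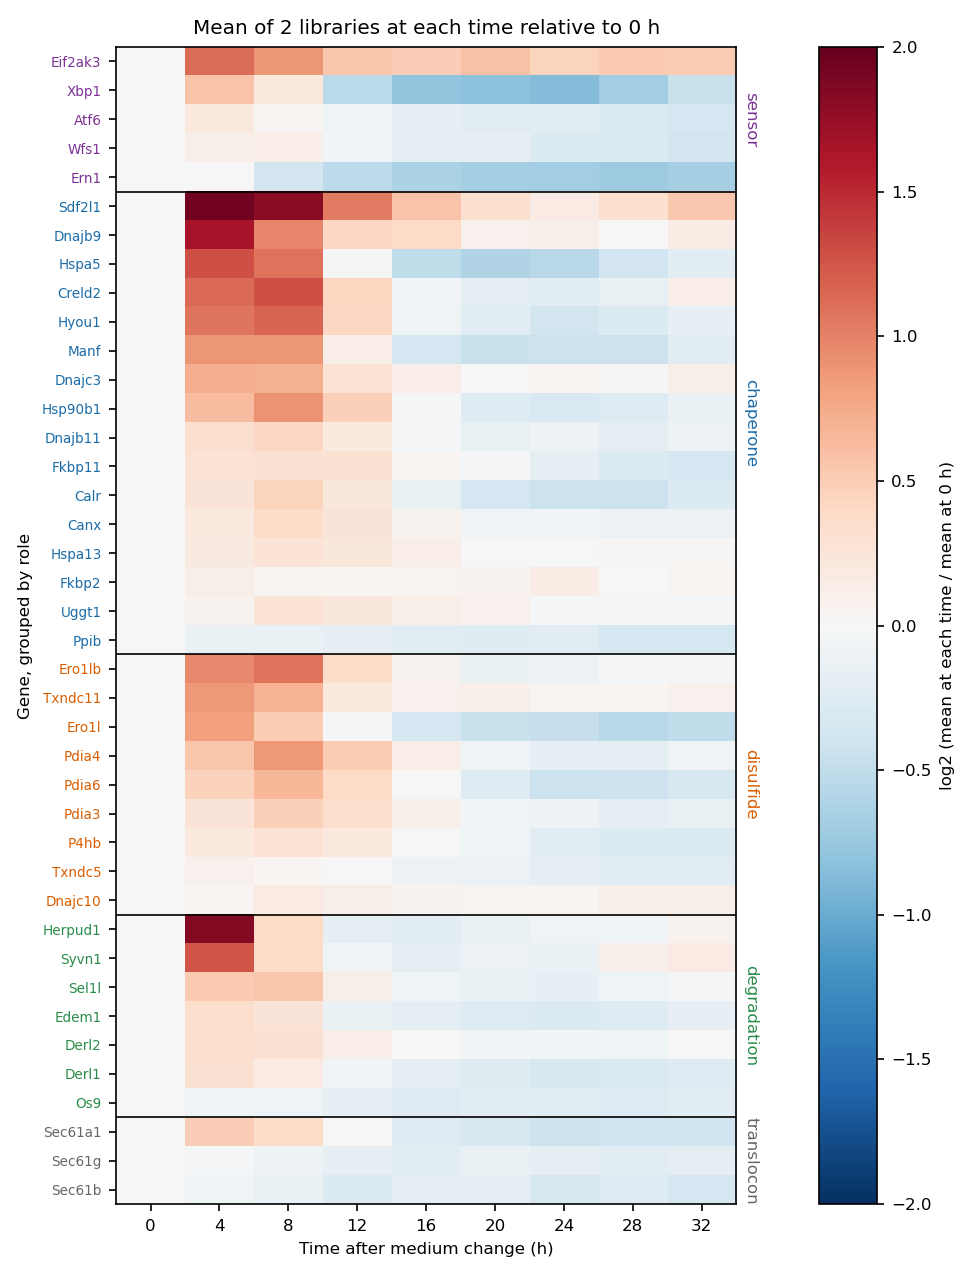
Heat map of log2 (mean of the 2 libraries at each time over the mean at 0 h) for the 40 tested genes, grouped by role and ordered within a role by the change at 4 h. Red is above and blue below the 0 h mean. Red is strongest at 4 h and 8 h, and Herpud1 and Syvn1 fade by 8 h. Sdf2l1, Eif2ak3, Txndc11, Dnajc10 and Fkbp2 stay above 0 h throughout, and most other rows are blue from 20 h on.

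Of the disulfide group, Ero1l encodes ERO1alpha, the oxidase that recharges protein disulfide isomerase. Ero1l had 3921, 7005, 5217, 3567, 2809.7, 2629.8, 2624, 2411 and 2621 normalized reads in replicate 1, and 3417, 5949, 5221, 3641, 2979, 2732, 2698, 2561 and 2533 in replicate 2. Its 4 h libraries were the highest, and the values from 16 h to 32 h all lay below both 0 h libraries. The means were 6477 ± 747 normalized reads at 4 h, against 3669 ± 356 at 0 h (SD, n = 2), a log2 change of 0.82 ± 0.08 (limma adjusted p = 1.07e-05). At 28 h it was 0.385-fold the 4 h level (limma adjusted p = 2.69e-08).

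Pdia4 encodes ERp72, a protein disulfide isomerase. Pdia4 had 5860.4, 9554, 10637, 8391, 6264, 5457, 4833, 4938 and 5557 normalized reads in replicate 1, and 5712, 7446, 10578, 8016, 6384, 5465, 5239, 5126 and 5514 in replicate 2. The 8 h libraries were the highest in both replicates and did not overlap those of 4 h. At 4 h it was 1.46-fold the 0 h level (log2 change 0.54 ± 0.08, limma adjusted p = 0.000557).

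Txndc11 encodes a thioredoxin-domain protein of the ER. Txndc11 had 944, 1887, 1479.7, 1099, 1009, 999.6, 991, 959 and 991 normalized reads in replicate 1, and 949, 1574, 1593, 1065, 1006, 1021, 982, 996 and 1014 in replicate 2. Both 4 h libraries and both 8 h libraries were above all others. The change at 4 h was 0.86 ± 0.07 (log2, limma adjusted p = 5.44e-06).

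Ero1lb, the second ERO1 oxidase, had few reads, 126 to 378 a library. It had 366 and 241 normalized reads at 4 h, against 137 and 173 at 0 h, a ratio of 2.67 in replicate 1 and of 1.39 in replicate 2 (log2 change 0.94 ± 0.19, limma adjusted p = 0.00318). Among the other isomerases Pdia6 rose by 0.46, Pdia3 by 0.25 and P4hb by 0.20 on the log2 scale. P4hb, the classical protein disulfide isomerase, was just inside the threshold (limma adjusted p = 0.0491) and lost its call in 20 alternative settings. Txndc5 changed by 0.08 ± 0.06 and the reductase Dnajc10 (ERdj5) by 0.03 ± 0.05, and neither passed.

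Among the degradation factors, Herpud1 encodes a ubiquitin-like membrane protein that organises the HRD1 ligase complex. Herpud1 had 1842, 7209, 2125, 1644, 1507, 1523, 1443, 1795 and 1912 normalized reads in replicate 1, and 1727, 5492, 2574, 1509, 1570.3, 1748, 1943, 1616 and 1852 in replicate 2. Its 4 h libraries were more than double every other library. The means were 6350.4 ± 1214 normalized reads at 4 h, against 1785 ± 81.4 at 0 h (SD, n = 2), a log2 change of 1.82 ± 0.14 (limma adjusted p = 2.34e-06). At 28 h it was 0.271-fold the 4 h level (limma adjusted p = 2.50e-07).

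Sel1l encodes the adaptor of that ligase and Edem1 a mannosidase-like protein that marks glycoproteins for disposal. Sel1l had 6086, 9539, 8755, 6851, 5680.00, 5562, 5506, 5812 and 5938 normalized reads in replicate 1, and 6289.6, 8229.8, 9361, 6636, 5995, 5763, 5591, 5845 and 6094 in replicate 2. Edem1 had 3489, 4725, 4003, 3240.3, 2938, 2824, 2940.5, 2878 and 3024 normalized reads in replicate 1, and 3459.9, 4142, 4264, 3125, 3105, 2959, 2718, 2906 and 3188 in replicate 2. In both genes the 4 h and 8 h libraries were above all others. The changes at 4 h were 0.52 ± 0.06 for Sel1l and 0.35 ± 0.07 for Edem1 (log2, limma adjusted p = 9.45e-05 and 0.00252).

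Syvn1 encodes the ligase HRD1 itself. It had 6441 and 4438 normalized reads at 4 h, against 2550.43 and 1996 at 0 h. The lower 4 h library was thus above the higher 0 h library, and the log2 change was 1.24 ± 0.14 (limma adjusted p = 4.66e-05). The derlins Derl1 and Derl2, membrane proteins of the export channel, rose by 0.30 and 0.33 on the log2 scale. The lectin Os9, which hands glycoproteins to SEL1L, changed by -0.09 ± 0.07 and did not pass. Derl3 had 6.78 and 2.57 normalized reads at 4 h, against 0 and 5.49 at 0 h, too few to compare.

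The 3 subunits of the translocon, the channel for nascent proteins, differed among themselves. Sec61a1 had 12639, 17614, 15262, 12473, 10078, 9359, 9401, 8916 and 8901 normalized reads in replicate 1, and 10372, 14718, 14283, 10549, 9212, 9108, 7922, 8449 and 8495 in replicate 2. In Sec61a1, the pore subunit, the 4 h libraries were the highest in both replicates and did not overlap those of 0 h. It rose 1.41-fold (log2 change 0.49 ± 0.11, limma adjusted p = 0.00713), a call lost without the 4 h library of replicate 1 or the 0 h library of replicate 2. Sec61b had 1232, 1124, 1122, 970.2, 971, 992, 963, 939.9 and 940.3 normalized reads in replicate 1, and 1193, 1155, 1061, 1043, 1136, 1120.1, 973, 1094 and 989 in replicate 2. Sec61g had 2963, 2907, 2707, 2625, 2445, 2515, 2454, 2373 and 2448 normalized reads in replicate 1, and 2937, 2901, 2815, 2625, 2608, 2803, 2699, 2676 and 2719 in replicate 2. Both small subunits were highest at 0 h in both replicates, and neither passed the test over the 9 times (limma adjusted p = 0.0671 and 0.104), though both passed with the replicate number as a block.

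Between 4 h and 8 h some members kept rising while others fell. At 8 h Herpud1, Syvn1, Dnajb9 and Ero1l were lower than at 4 h, and Pdia4, Hsp90b1 and Uggt1 were higher (limma, adjusted p under 0.05). Those are 4 members lower and 3 higher of 40, against 6.41% lower and 4.84% higher of all tested genes, so both counts are close to the background. The 8 h level of Herpud1 was 29.5% of its 4 h level in replicate 1 and 46.9% in replicate 2 (log2 change -1.43 ± 0.14, limma adjusted p = 3.87e-05). Syvn1 was at 46.9% and 66.0% (-0.85 ± 0.14, limma adjusted p = 0.00161), and Dnajb9 at 54.4% and 72.2% (-0.67 ± 0.10, limma adjusted p = 0.000638). Pdia4 had 10637 and 10578 normalized reads at 8 h, against 9554 and 7446 at 4 h (0.33 ± 0.08, limma adjusted p = 0.0204). Hsp90b1 had 103102 and 94124 at 8 h, against 90086 and 71041 at 4 h, and lay at the threshold (0.30 ± 0.09, limma adjusted p = 0.0497).

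Herpud1, Syvn1 and Dnajb9 kept their call in every alternative run, whereas Hsp90b1 lost it in 21, Ero1l in 5, Uggt1 in 4 and Pdia4 in 3. With the replicate number as a block, 8 members were higher and 7 lower at 8 h, against 10.9% and 13.7% of all tested genes in that fit, the added ones being Calr, Canx, Pdia3, Pdia6 and Dnajc10 above 4 h, and Xbp1, Ern1 and Atf6 below it. Calr, Creld2, Pdia3 and Pdia6 were also called higher without the 4 h library of replicate 1. Pdia4, Hsp90b1 and Uggt1 all lost their call without the 4 h library of replicate 2 or without either 8 h library. In all of those settings an arm held 1 library, which is taken to vary like the rest.

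The hour of the highest value was read in each replicate, as a description. It was 4 h in both replicates for 10 members: Eif2ak3, Atf6, Xbp1, Hspa5, Dnajb9, Ero1l, Herpud1, Syvn1, Derl1 and Sec61a1. Among all tested genes 10% had this pattern. It was 8 h in both for another 10, Hsp90b1, Dnajb11, Calr, Canx, Uggt1, Pdia3, Pdia4, Pdia6, P4hb and Dnajc10, against 3.01% of all tested genes. For 4 members, Ern1, Ppib, Sec61b and Sec61g, it was 0 h in both, against 14.7% of all tested genes. In 13 members replicate 1 was highest at 4 h and replicate 2 at 8 h, among them Hyou1, Manf, Creld2 and Sel1l. That split pattern was not counted over all tested genes. The 8 h set held 5 of the 16 chaperones and 5 of the 9 disulfide factors, and no sensor, degradation factor or translocon subunit. The 4 h set held 3 sensors, 3 degradation factors, 2 chaperones, 1 disulfide factor and 1 translocon subunit. After scaling the libraries to equal totals, or after quantile normalization, 6 members were highest at 4 h in both replicates. Of all tested genes 5.65% and 9.37% were so in these scalings. Those scalings gave 12 and 11 members highest at 8 h in both replicates, against 411 and 447 of all 12393 tested genes. At 0 h they gave 0 and 1 members, against 868 and 1504 of all tested genes. Whether the roles differ in timing was not tested.

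At later times most members were lower than at 4 h. At 16 h 29 of 40 members were lower than at 4 h, against 16.3% of all tested genes, and 0 were higher, against 16.4%. At 28 h 33 were lower, against 20.7%, and 0 higher, against 20.6%, by limma. At both times edgeR and DESeq2 also called no member higher, and none was higher at an unadjusted p under 0.05. Shares of all tested genes called higher by edgeR and DESeq2 at these times are not given here. With libraries scaled to equal totals, Dnajc10 and Uggt1 were higher at 16 h and Dnajc10 at 28 h. Of all 12393 tested genes, 4333 and 5053 were higher at these times in that scaling. After quantile normalization Dnajc10 was also higher at 28 h, against 2973 of all tested genes. The median log2 change at 28 h against 4 h was -0.61 over the members and 0.0086 over all tested genes. By role, 5 of 5 sensors, 12 of 16 chaperones, 8 of 9 disulfide factors, 6 of 7 degradation factors and 2 of 3 translocon subunits were lower at 28 h. Hspa5, Dnajb9, Herpud1 and Sdf2l1 were at 0.318, 0.319, 0.271 and 0.332-fold the 4 h level. Ppib, Hspa13, Uggt1, Fkbp2, Dnajc10, Os9 and Sec61b did not pass, of which Ppib, Uggt1 and Os9 passed with the replicate number as a block. Of the 33 called at 28 h, 5 lost the call in at least 1 alternative setting, Sec61g in 12 and Canx in 4. Of the 29 called at 16 h, 6 did, P4hb most often. Another 7 members passed at 16 h, in either direction, only in at least 1 alternative. The contrasts at 8, 16 and 28 h share the 4 h libraries with the contrast of 4 h with 0 h, so a high 4 h value enters all of them.

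Compared with 0 h, the late calls depended on how the libraries are scaled. At 24 h 18 members were lower and 1 higher than at 0 h, against 18.6% lower and 18.6% higher of all tested genes. At 32 h 15 were lower, against 20.4%, and 2 higher, against 20.5%. With libraries scaled to equal totals, 5 members were lower and 9 higher at 24 h, against 10.2% and 43.7% of all tested genes, and 3 lower and 13 higher at 32 h, against 10.5% and 44.9%. With that scaling the median log2 change of all tested genes was 0.21 and 0.22 at these times, against 0.0085 and 0.013 on the deposited scale, and the normalized totals are lower late than at 0 h. Quantile normalization gave 6 lower and 2 higher at 24 h, against 15.6% and 22.8% of all tested genes, and 6 lower and 4 higher at 32 h, against 17.1% and 24.1%. Single 0 h libraries mattered as well: without that of replicate 1, 9 members were lower at 24 h and 7 at 32 h, against 14.6% and 15.9% of all tested genes. At 24 h, 10 were lower without the 24 h library of replicate 2, against 14.6%. At 32 h, 8 and 9 were lower without the 32 h library of replicate 1 or of replicate 2, against 15.8% and 15.2%.

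A few members kept the late call in all settings run. At 24 h these were Xbp1, Ern1, Ero1l and Hspa5, all lower, at 0.542, 0.612, 0.727 and 0.681-fold the 0 h level. At 32 h they were Ern1, Ero1l and Atf6, lower at 0.629, 0.704 and 0.781-fold, and Eif2ak3, higher at 1.42-fold. Sdf2l1 was also higher at 32 h (1.47-fold, limma adjusted p = 0.00788), with a call that was lost in at least 1 setting. In 20 of 40 members both replicates had a higher value at 32 h than at 24 h, among them Xbp1, Hspa5, Creld2 and Calr. In Xbp1 the 32 h values were 2562 and 2795 normalized reads, against 1695 and 2275 at 24 h, and in Hspa5 34667 and 33575, against 25869 and 28060.45. These differences are a description and were not tested. The same count was not made over all tested genes, so the 20 of 40 cannot be set against a background.

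A sinusoid with a period of 24 h was fitted because the series was set up as a circadian time course. By limma's F test 0 of 40 members passed, against 0.371% of all tested genes. In that test 16 of 40 members had an unadjusted p under 0.05, against 2107 of all 12393 tested genes. Passing members numbered 0 with edgeR, against 0.315% of all tested genes, and 4 with DESeq2, against 4.3%, namely Creld2, Dnajc10, Sdf2l1 and Syvn1. The smallest limma value was that of Creld2 (adjusted p = 0.184), with a fitted peak at 8.07 h and a fitted peak-to-trough ratio of 2.00. When a linear trend was added to the sinusoid 25 members passed, against 17% of all tested genes. With a period of 28 h 22 passed, against 11.6%, with 20 h 0, against 0.0646%, and without the 0 h and 4 h libraries 1, against 1.15%. The 9 times span little more than 1 cycle.

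The replicates differed for some members. With the replicate as a term beside time, replicate 2 was higher than replicate 1 for 4 members and lower for 7, against 20% and 17.9% of all tested genes. The lower ones were Ern1, Hspa5, Hyou1, Canx, Pdia6, Syvn1 and Sec61a1, and the higher ones Xbp1, Manf, Ppib and Sec61g. The sizes were small, from -0.16 for Sec61a1 to 0.15 for Xbp1 (log2). Of the 11 called, 6 lost the call in at least 1 alternative setting. Manf lost it in 20, Syvn1 in 9, Hspa5 in 8, Ern1 in 6, Xbp1 in 2 and Ppib in 1. Another 6 members passed only in at least 1 alternative. Without either 12 h library 7 members differed.

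Genes of the same pathways outside the 41 were described from 6 lists. At 4 h against 0 h, 17 of 115 tested rose and 6 fell (limma), against 11% and 10.5% of all tested genes, with a median log2 change of 0.037. The share that rose is near that background. Among 23 tested genes of translocation and signal peptide removal 7 rose, with the signal peptidase subunits Spcs3 and Spcs2 at 0.43 and 0.26 (log2) and the translocon-associated Ssr1 at 0.21. Of 22 tested genes of glycan addition and trimming 4 rose, led by the mannosyltransferases Alg2 and Alg12 at 0.69 and 0.65 and by Magt1, an oligosaccharyltransferase subunit, at 0.39. Of 19 tested genes of stress signalling 5 rose and 1, Mbtps1, fell; Ddit3, which encodes CHOP, rose by 1.59, Chac1 by 1.63 and Trib3 by 0.75. Ddit3 had 1662 and 1322 normalized reads at 4 h, against 492 and 489 at 0 h, and at 8 h was at 0.539-fold its 4 h level. In the other ER degradation list 1 of 22 tested genes rose, Tmem129 at 0.31. In the list of other thiol oxidoreductases 2 of 14 fell, Gpx7 and Gpx8 at -0.34 and -0.24. In that of other chaperones and prolyl isomerases 3 of 15 fell, Cnpy2, Cnpy4 and Sil1, at -0.35, -0.34 and -0.26. These lists were chosen with earlier results of these data known, and whether they differ from the 41 genes was not tested.

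Reads of overlapping genes limit 9 members. In the RefSeq annotation Hspa5, Ppib, Pdia3, Pdia4, Pdia6, Txndc5, Txndc11, Syvn1 and Derl2 overlap another gene of the table, such as Rabepk beside Hspa5 and Mrpl49 beside Syvn1. How strand was used in counting is not given in the sources used here, so reads of such pairs may not be separated.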

How the data were processed

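RNA of 18 NIH3T3 libraries was sequenced with single-end reads, per the labels' protocols. The submitters' processing notes name TopHat, HTSeq, DESeq and the mouse build mm9, without versions or roles. The deposited signal values are normalized read counts per gene, which the authors had made by dividing reads by 1 factor per library. Multiplying back by the factor of each library recovered integers to within 0.0061 reads in 100% of values, and edgeR and DESeq2 were run on those. The annotation at hand is of a later build, so gene positions are RefSeq's in GRCm38.

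The program limma 3.58.1 (R 4.3.3) was applied to log2(value + 1) of the 12393 of 21937 genes whose mean reached 10 normalized reads, with a variance trend and all 18 libraries in one fit, at a Benjamini-Hochberg threshold of 0.05. Fold changes are on that scale and understate changes of low genes. Tests were 2-sided: an F over the 9 times, 6 contrasts, a 24 h cosine and sine, and a replicate term. edgeR 4.0.16 and DESeq2 1.42.0, other pseudocounts, filters and scalings, the replicate block and leaving out each library were alternatives. Scripts were tested on simulated data. Deviations of same-numbered libraries from the time means correlated at 0.230 to 0.502 in all 36 pairs of times. Replicate numbers were therefore taken to pair libraries, from the data and not the labels. The F over the 9 times, the 6 contrasts and the sinusoid had no replicate term, so their p-values leave this pairing out. It entered only the replicate block and the tests of the replicate term.

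The members and lists were chosen with earlier results of these data known. All members are named. Values in every library are given for each sensor and for the members of each role with the smallest p over the 9 times (3 a role, 5 for chaperones), with further members shown where a result turns on them. From each other list up to 3 genes with the smallest p at 4 h are named.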

Additional observations from a re-analysis of the deposited data

How the results depend on the processing

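The count of members higher at 4 h than at 0 h ranged from 17 to 30 over the 28 alternatives, that of members lower at 28 h than at 4 h from 28 to 36, and that of members that differed among the 9 times from 33 to 38. With libraries at equal totals the counts were 7 higher at 8 h against 4 h, 2 higher at 16 h and 1 at 28 h against 4 h, 9 higher and 5 lower at 24 h against 0 h, 13 higher and 3 lower at 32 h against 0 h, and 6 highest at 4 h in both replicates. Quantile normalization gave 7, 1 (28 h against 4 h), 2 and 6 (24 h), 4 and 6 (32 h), and 6. Of all 12393 tested genes, 1869 were higher at 8 h against 4 h with equal totals and 747 with quantile normalization. Background for the other counts of these scalings stands above. Without a variance trend 1 member was higher at 8 h and 6 differed between the replicates. The replicate block gave 8 higher and 7 lower at 8 h, and changed no other count by more than 1.5 times. For the 24 h rhythm DESeq2 gave 4 members, a linear term 25, a period of 28 h 22, and leaving out 0 h and 4 h 1. Leaving out 1 library gave 17 to 28 higher at 4 h against 0 h, 0 to 7 higher at 8 h against 4 h, 0 to 1 higher and 9 to 21 lower at 24 h against 0 h, 1 to 2 higher and 7 to 17 lower at 32 h against 0 h, and 7 to 12 members that differed between replicates. Under equal totals the direction turned for Hspa13 (0.20), Txndc5 (0.0213) and Uggt1 (0.16) at 24 h against 0 h, and for Sel1l (0.17) and Uggt1 (0.17) at 32 h. Under quantile normalization it turned for P4hb at 16 h against 4 h (0.0205), for Hsp90b1 (0.0395), P4hb (0.0904) and Txndc5 (0.0295) at 24 h against 0 h, and for Calr (0.0694), P4hb (0.0642) and Txndc5 (0.0105) at 32 h. The cause was not tested. Leaving out a library left 1 in an arm, which was assumed to vary like the other times. Depth limits Derl3 and Ero1lb.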
